A study of Mus musculus with 8 samples.

Results

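The immediate early genes and their relatives among the activator protein 1 (AP-1) factors were followed in chromatin accessibility data from fasted mouse liver. The 10 genes were Jun, Junb, Jund, Fos, Fosb, Fosl2, Egr1, Myc, Maff and Klf6. A region of open chromatin was assigned to one of them when that gene was the nearest protein-coding gene, measured to the gene span, within 100 kb. This gave 54 of the 49587 consensus regions of the series, none of them tied between genes, and the farthest lay 91411 bp from its gene, Jun. All mice were C57BL/6 males aged 9 weeks and fasted for 24 h, and flash-frozen liver was used. The 4 genotypes, with 2 libraries each, were wild type (WT), Cpt2 liver knockout (Cpt2 L-/-), Ppara knockout (Ppara -/-) and the double knockout (Cpt2 L-/- ; Ppara -/-), in which Ppara was lost in the whole body. The labels name neither the Cre driver nor the deleted exons, nor whether each library came from its own animal, so p-values measure only the spread between these libraries. Wild type and Cpt2 knockout are called Ppara-intact below, and Ppara knockout and double knockout Ppara-null. Cpt2-null denotes Cpt2 knockout and double knockout.

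As background, immediate early genes are switched on within minutes by growth factors, stress or hormones without new protein synthesis, and their promoters are commonly kept open before the stimulus. Jun family proteins pair with each other or with Fos family proteins through a leucine zipper to form AP-1, which binds the site TGANTCA. In the liver these genes are known for their rapid induction after injury, partial hepatectomy and tissue handling. Cpt2 encodes an enzyme of the mitochondrial carnitine shuttle, and Ppara encodes the nuclear receptor that drives fatty acid oxidation in fasting.

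The assay was ATAC-seq, in which a transposase cuts open DNA, and the deposited values are peak lists per library and not counts per region. A Ppara-intact library had 28733 to 39296 peaks and a Ppara-null one 18132 to 22715. Because the lists differ in length, each was also reduced to its 18132 most significant peaks, as many as the shortest list holds. These are called equal-length lists. The cut makes the share of all regions called nearly the same in every library by construction. It removes more peaks from the longer Ppara-intact lists, so a region missing there can still have a deposited peak. Numbers in the peak names were 441, 443, 446 and 4717 on the Ppara-intact side and 6831 to 6834 on the other; if they mark runs, run and Ppara status cannot be told apart. Of 8 hepatocyte markers with a known start site, 8 had a peak within 1 kb of it in each Ppara-intact library and 6 to 7 in each Ppara-null one. None of 5 Kupffer cell and macrophage markers and none of 4 lymphocyte markers had one in any library. These included the Kupffer cell gene Clec4f and the T cell gene Cd3e. Of 3 endothelial markers 0 to 1 was called on both sides. Of 5 stellate markers, Ppara-intact libraries called 1 to 2 and Ppara-null ones 0, and of 3 cholangiocyte markers 1 and 0 to 1. The part of these cells in the results was not tested, and in whole liver fewer open cells and less opening per cell cannot be told apart. At the targeted genes, 1 of 3 Cpt2 regions and 2 of 10 Ppara regions were called in all 8 libraries, against 22.7% of all regions. Only in Ppara-intact libraries were 1 of the 3 and 3 of the 10 called, against 6.82%. None was separated by Cpt2 status, against 0.0968% called only in Cpt2-null and 0.00605% only in Cpt2-intact libraries. With backgrounds this low, that count does not check the Cpt2 deletion.

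The 54 regions were called more often in Ppara-intact than in Ppara-null livers, as the whole region set was. Peaks were present at 38 and 46 of them in wild type, 45 and 44 in Cpt2 knockout, 26 and 21 in Ppara knockout, and 27 and 24 in double knockout, in the order of libraries 1 and 2. The 4 Ppara-intact libraries lay above the 4 Ppara-null ones without overlap. In shares this was 80.1% ± 6.7 against 45.4% ± 4.9 (SD, n = 4 each), a difference of 34.7 percentage points. For all 49587 regions the shares were 69.4% ± 8.9 and 38.9% ± 4.3, a difference of 30.6 points. In equal-length lists the 10 genes had 41.2% ± 4.1 of their regions called in Ppara-intact and 43.5% ± 3.2 in Ppara-null libraries. That difference of -2.31 points was smaller than the SD on either side and of the opposite sign to that with all peaks, against 0.686 points for all regions.

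**Figure D1:**
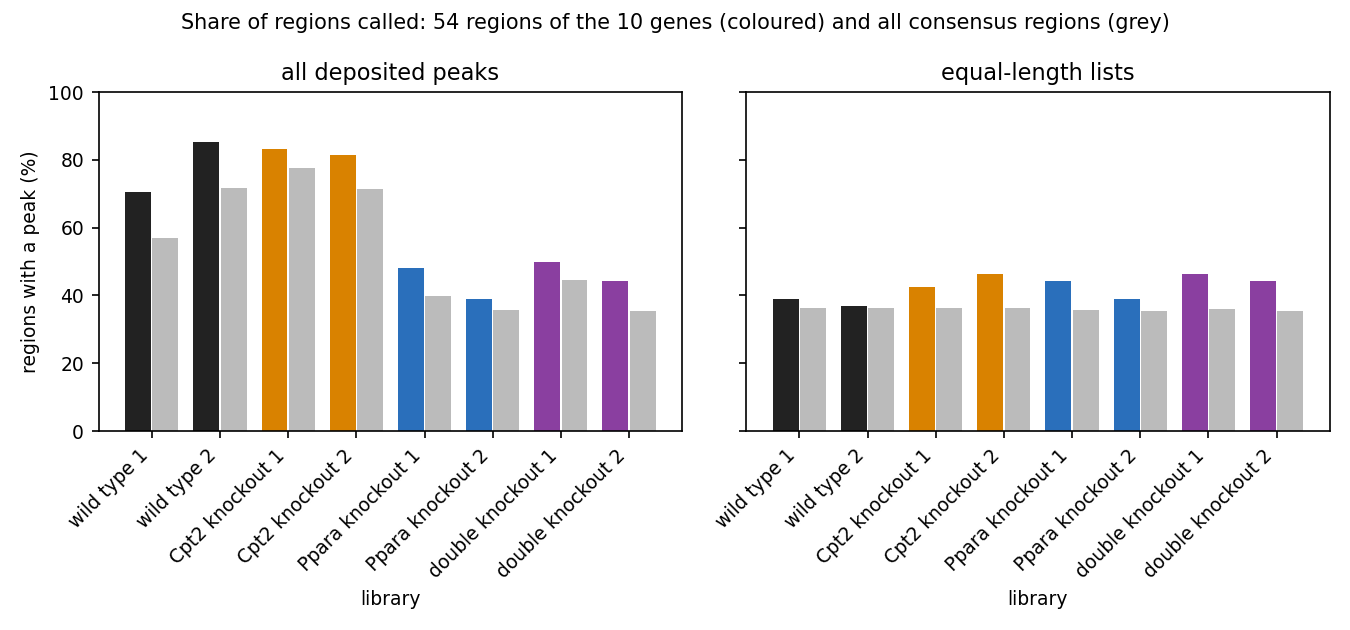
Percentage of regions with a peak in each of the 8 libraries, for the 54 regions of the 10 genes (coloured bars) and all 49587 consensus regions (grey bars), with all deposited peaks (left) and in equal-length lists (right). With all peaks the coloured bars run from 70.4% to 85.2% on the Ppara-intact side and from 38.9% to 50% on the Ppara-null side, while in equal-length lists both sides lie between 37% and 46.3%.

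The regions were spread over the whole range from constant to rare. Of the 54, 12 (22.2%) were called in all 8 libraries and 6 (11.1%) in 1 alone, against 22.7% and 23% of all regions. Median length was 431 bp against 381 bp. Regions within 1 kb of a gene end numbered 18 (33.3%, against 27.4% of all regions within reach of a gene). A further 7 lay inside a gene (13%, against 44.6%) and 29 outside (53.7%, against 28%). Called positions in Ppara-intact and Ppara-null libraries were 91.7% and 62.5% for the first kind, 67.9% and 17.9% for the second, and 75.9% and 41.4% for the third. The corresponding shares for all regions were 84.3% and 60.9%, 65.7% and 32%, and 63.7% and 30.7%. Of the member regions called in either library of a genotype, 48.4% were called in 1 only in Ppara knockout, 21.3% in wild type, 22% in Cpt2 knockout and 24.1% in double knockout. Over all regions these shares were 38.5%, 32.2%, 29% and 36.4%, so Ppara knockout had the highest share there too, and the other 3 genotypes had lower shares at the member regions than over all regions.

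Complete separation by Ppara status was found at 3 of the 54 regions (5.56%), each called in all 4 Ppara-intact and in no Ppara-null library. Of all regions, 6.82% were separated in this way, so the share at these genes was near the background. None of the 54 was called only in Ppara-null libraries, where the background was 0.0686%. The 3 regions lay 860 bp upstream of Jun, 94 bp upstream of the Fosb start site and 1635 bp from Myc. Each had p = 0.0286 in a two-sided exact permutation test of the calls, the smallest that 8 libraries allow, and an adjusted p of 0.415 over all regions. No region of the series passed 0.05 after adjustment, while 3418 had an unadjusted exact p below it. In equal-length lists 38 of the 54 had a peak in some library, and none was separated in either direction. The background was 1.34% and 0.846% of all regions with such a peak.

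**Figure D2:**
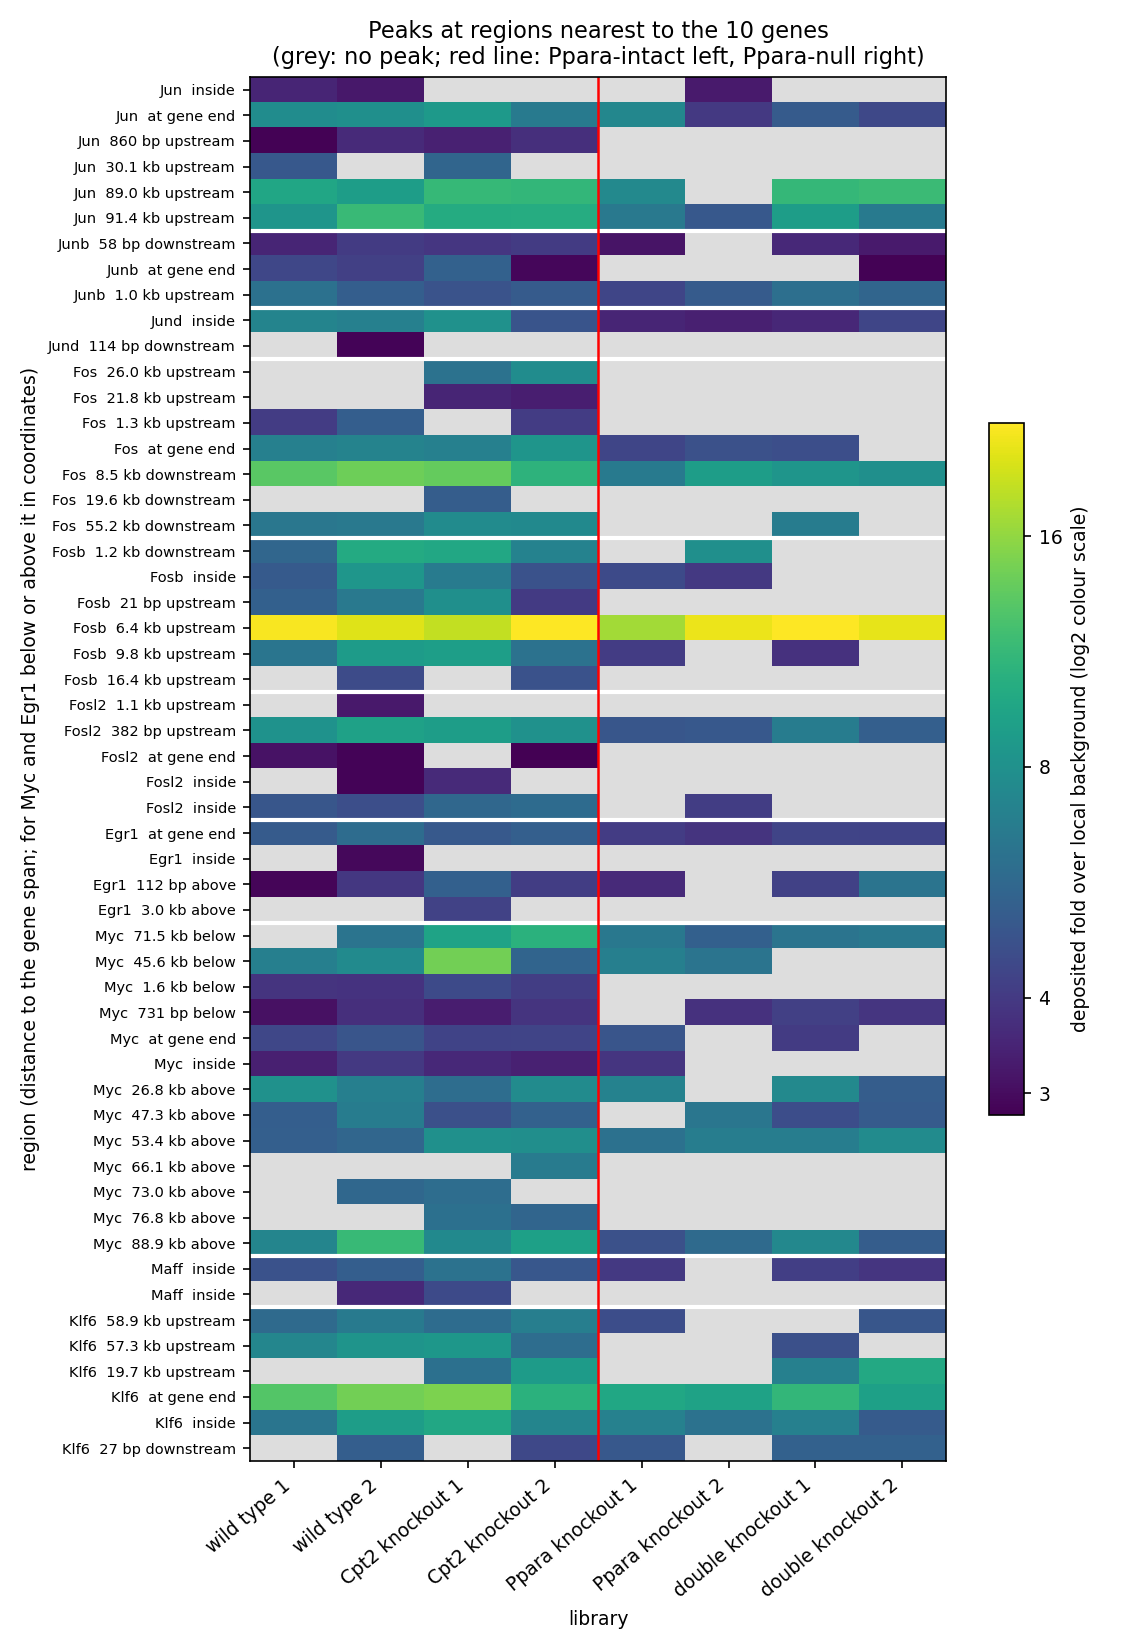
Deposited fold over local background (colour, log2 scale) at each of the 54 regions (rows, grouped by gene) in the 8 libraries (columns), with grey where no peak was called. Rows coloured in all 4 columns left of the red line and grey in all 4 right of it are the 3 regions separated by Ppara status. These lie at Jun, Fosb and Myc. The brightest row is the region 6365 bp from the Fosb gene span.

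Jun encodes the founding AP-1 subunit and lies on chromosome 4 (95049036 to 95052222, minus strand, mm10). Its start site fell in a region of 1081 bp (95051916 to 95052996) that was called in all 8 libraries. The deposited fold, the authors' ratio of pileup at the peak summit to local background, was 7.75 and 7.92 in wild type and 8.65 and 6.59 in Cpt2 knockout. It was 7.37 and 3.98 in Ppara knockout and 5.12 and 4.41 in double knockout. Ppara knockout 1 thus lay among the Ppara-intact libraries and the sides overlapped. Counted from the start, the summit lay at 5 to 6 bases in 5 libraries, at -158 in wild type 1, and at -288 and -293 in the double knockouts.

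The bases just upstream of the Jun start are shown because this window lies within the region called in every library. Capitals mark TGACNTCA, an 8-base relative of the AP-1 site, at position -45 from the start, where the match is TGACATCA. The sequence is RefSeq's for GRCm38.p6, the assembly of mm10, chr4:95052223-95052472, minus strand.
Jun: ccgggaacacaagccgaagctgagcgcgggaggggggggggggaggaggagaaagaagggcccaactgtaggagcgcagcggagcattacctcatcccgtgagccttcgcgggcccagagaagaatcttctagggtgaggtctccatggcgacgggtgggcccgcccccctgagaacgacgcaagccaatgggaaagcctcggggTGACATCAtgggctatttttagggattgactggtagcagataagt

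Upstream of Jun, the region at 95053082 to 95053535 was 1 of the 3 separated by Ppara status, with low folds of 2.84 and 3.59 in wild type and 3.39 and 3.71 in Cpt2 knockout. In equal-length lists 1 library called it. A pair of distal regions, 88995 bp and 91411 bp upstream, had higher folds. At the nearer one, the highest ranked of Jun's other regions, folds were 9.66 and 8.92 in wild type, 11.3 and 11.1 in Cpt2 knockout, 7.51 in Ppara knockout 1, and 11.2 and 11.6 in double knockout. Double knockout and Cpt2 knockout had like values there, and Ppara knockout 2 had no peak. At the farther one, called in all 8 libraries, the Ppara-intact folds of 8.31 to 11.5 overlapped the Ppara-null ones of 5 to 8.92. A weak region inside Jun (95050630 to 95050901) was called in both wild type libraries and Ppara knockout 2, at folds of 3.22 to 3.48, and in no Cpt2-null library. It was the single region of the 54 called only in wild type of the pair with Cpt2 knockout, where the background was 0.512%.

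Junb, a Jun relative that often restrains Jun, lies on chromosome 8 (84976909 to 84978748, minus strand). The region over its start (84978531 to 84979022) had a peak in the 4 Ppara-intact libraries at folds of 4.36, 4.17, 5.36 and 2.92 and in double knockout 2 at 2.85. Both Ppara knockout libraries lacked it. By contrast the region 1016 bp upstream was called in all 8 libraries, with Ppara-intact folds of 4.79 to 6.11 and Ppara-null folds of 4.35 to 6.01, which overlap. By calls, the region over the start was thus variable and the one upstream of it constant. The upstream peak still differed in deposited −log10 p, which was 29.2 to 59.9 without Ppara and 62.6 to 88.3 with it. Its width did not overlap either, at 472 to 533 bp against 648 to 783 bp. Such separation by −log10 p, higher on the Ppara-intact side, was found at 76.4% of all regions called in every library. The third region, 58 bp beyond the other end, lacked any peak in Ppara knockout 2 alone. Folds were 3.48 to 4.04 in Ppara-intact libraries and 3.13 to 3.58 in the other Ppara-null ones, but not at one place. Summits lay 2422 and 2493 bases from the start in the double knockouts and 2033 to 2120 in the other libraries with a peak. Cpt2 knockout 2 also had a weaker peak, of fold 2.63, at 2383 to 2684 bases.

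Jund, the member of the family expressed most constantly in resting cells, lies on chromosome 8 (70697739 to 70700616, plus strand). The region nearest its start site (70698382 to 70699359) began 643 bp into the gene. Folds were 7.2 and 6.95 in wild type, 8.08 and 4.81 in Cpt2 knockout, 3.49 and 3.38 in Ppara knockout, and 3.53 and 4.33 in double knockout. The sides did not overlap. Of the 12 member regions called in all 8 libraries, 4 (33.3%) had folds that were all higher in the Ppara-intact libraries, at Jund, Fos, Fosl2 and Egr1, and none had the opposite. The background was 60% and 0.222% of such regions, so the share of members was below it. By −log10 p it was 8 of the 12 (66.7%) and none, with a background of 76.4% and 0.329%. In equal-length lists the ranks of this peak overlapped, at percentiles of 36.6 to 85.2 and 13 to 52.9. Jund's only other region, 114 bp beyond its end, was called in wild type 2 alone.

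Fos, the partner that raises the DNA binding of Jun, lies on chromosome 12 (85473890 to 85477274, plus strand). The region over its start (85473363 to 85474114) had folds of 6.98 and 7.15 in wild type, 6.98 and 8.31 in Cpt2 knockout, 4.33 and 4.7 in Ppara knockout and 4.65 in double knockout 1, and no peak in double knockout 2. Where a peak was called, every Ppara-intact value was above every Ppara-null value. Summits lay at -332 to -325 bases from the start in the 4 Ppara-intact libraries and double knockout 1, and at -200 and -182 in the Ppara knockouts.

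The Fos and Fosb upstream sequences are shown because the start regions of these genes had lower folds, or no peak, in the Ppara-null libraries. Capitals mark TGACG, the short cAMP response element, found at positions -129 and -66 in Fos and -60 in Fosb. Both come from RefSeq on GRCm38.p6, at chr12:85473640-85473889 (plus strand) and chr7:19310046-19310295 (minus strand).
Fos: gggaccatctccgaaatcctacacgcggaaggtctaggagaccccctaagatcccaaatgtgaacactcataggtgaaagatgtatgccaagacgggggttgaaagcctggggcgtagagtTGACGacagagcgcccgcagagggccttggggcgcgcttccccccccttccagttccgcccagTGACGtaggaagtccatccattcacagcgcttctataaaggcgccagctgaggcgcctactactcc
Fosb: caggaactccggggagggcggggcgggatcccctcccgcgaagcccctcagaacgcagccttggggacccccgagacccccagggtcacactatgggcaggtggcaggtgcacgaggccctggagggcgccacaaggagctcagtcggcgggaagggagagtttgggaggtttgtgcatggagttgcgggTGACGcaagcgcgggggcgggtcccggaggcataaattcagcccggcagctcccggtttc

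Promoter sequences were matched for 8 of the 10 genes, and Egr1 and Myc had no entry. Searched on both strands in the 250 bases before the start, TGACG was in 20.2% of 21263 promoters of coding genes, TGACNTCA in 7.25%, the full cAMP response element TGACGTCA in 1.92%, the AP-1 site TGANTCA in 6.13%, the GC box GGGCGG in 42.6% and the CArG box in 1.39%. TGACG lies within TGACGTCA, and TGACGTCA is 1 form of TGACNTCA. Jun, Klf6 and 2 of the 3 Maff start sites held TGACNTCA, and Junb, Fos, Fosb and 2 of the Maff start sites held TGACG. TGACNTCA was chosen after these sequences were seen, so its background gives no measure of excess here. The GC box was at Jun, Fos, Fosb, Fosl2, Klf6 and 2 of the Maff start sites. TGACGTCA was at the second Maff start site at position -29. None of these promoters held TGANTCA or a CArG box in this window. A match describes the letters and not a bound site.

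The highest ranked of the other Fos regions lay 8467 bp beyond the gene's end (85485741 to 85486401) and was called in all 8 libraries. Folds were 13.2 and 14.2 in wild type, 13.8 and 10.8 in Cpt2 knockout, 6.59 and 8.96 in Ppara knockout, and 8.29 and 7.91 in double knockout. The sides did not overlap in fold but did in rank, at percentiles of 75.8 to 87.4 and 54.4 to 93.6 in equal-length lists. Fos also held 2 of the 4 regions called in both Cpt2 knockout libraries and not in wild type, 26025 bp and 21830 bp upstream. Their folds were 6.16 and 7.72 at the first and 3.48 and 3.34 at the second, and no Ppara-null library called either. A region 1341 bp upstream was called in both wild type libraries and Cpt2 knockout 2, and in no Ppara-null library. One 55223 bp downstream had folds of 6.4 to 7.64 in the Ppara-intact livers and of 6.73 in double knockout 1.

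Fosb, a Fos relative known for long-lived splice forms, lies on chromosome 7 (19302696 to 19310118, minus strand). The region 94 bp upstream of its start site (19310139 to 19310577) had a peak in each of the 4 Ppara-intact libraries, at folds of 5.33, 6.5, 7.89 and 4.01, and in no Ppara-null library. In equal-length lists 3 Ppara-intact libraries still called it, the most of the 3 regions separated by Ppara status. The region inside the gene (19308241 to 19308922) had folds of 5.05 and 8.39 in wild type, 6.69 and 4.74 in Cpt2 knockout, and 4.48 and 3.98 in Ppara knockout, and no peak in double knockout. A region 1222 bp beyond the gene's end was likewise missing in both double knockouts, and also in Ppara knockout 1. Its folds were 5.57 to 10 in Ppara-intact libraries and 7.89 in Ppara knockout 2. Of Fosb's 6 regions, double knockout called 2 and 1, Ppara knockout 3 and 3, and the Ppara-intact libraries 5 to 6. Over Fosb's regions this was 91.7% called in Ppara-intact and 37.5% in Ppara-null libraries, beside 69.4% and 38.9% of all regions. The Ppara-null share was thus near the background and the Ppara-intact share above it. In equal-length lists the shares were 70.8% and 37.5%, beside 36.4% and 35.7% of all regions. Myc went the other way in those lists, at 17.3% and 46.2%.

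The strongest peak of all 54 regions lay 6365 bp upstream of the Fosb gene span (19316483 to 19316862). Folds were 22.1 and 20.3 in wild type, 18.6 and 22.5 in Cpt2 knockout, 16.8 and 21.1 in Ppara knockout, and 22.4 and 20.9 in double knockout. It was the single Fosb region called in every library, and its folds overlapped between the sides. Its peak had the same start and end in all 8 libraries, a length of 380 bp, as had 17 (0.151%) of the 11258 regions called in all 8. In equal-length lists its percentile was 98.9 to 99.8 on the Ppara-intact side and 99.9 to 100 on the Ppara-null side, near the top of every list.

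**Figure D3:**
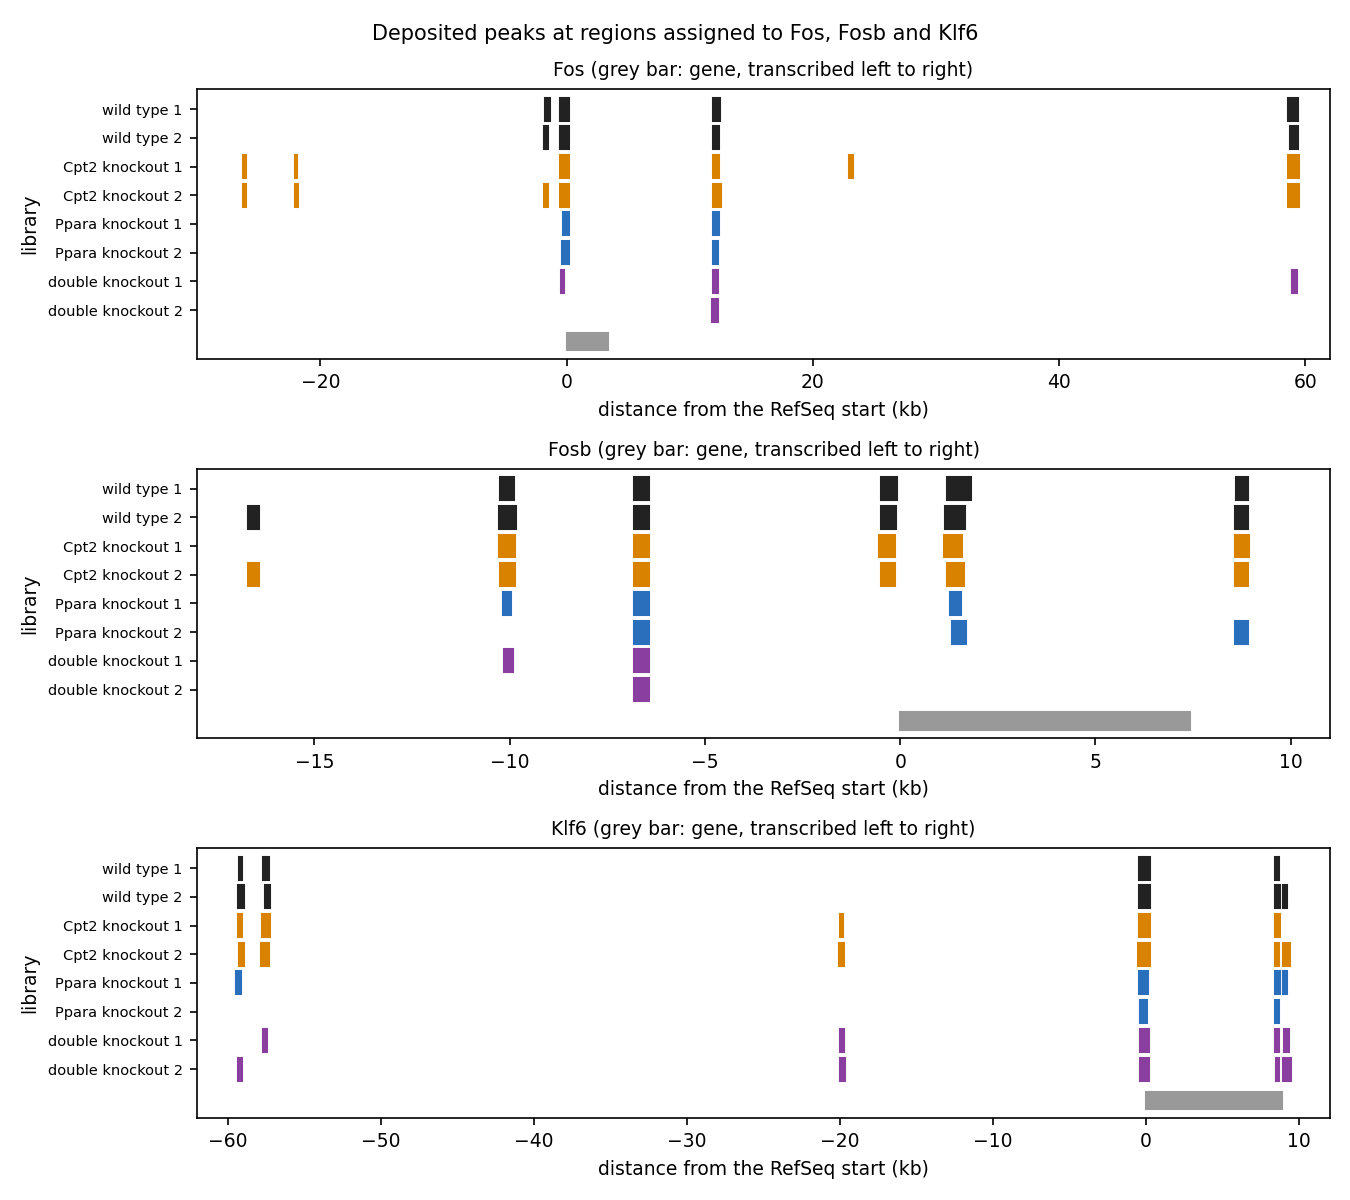
Deposited peaks (coloured blocks, to scale) at regions assigned to Fos, Fosb and Klf6 in each library, by distance from the RefSeq start in kb, with the gene as a grey bar. The leftmost 2 columns of peaks at Fos hold only Cpt2 knockout blocks, the Fosb column just left of the start only Ppara-intact ones, and the isolated Klf6 column between the distal and start peaks only Cpt2 knockout and double knockout ones.

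Fosl2, a Fos relative that lacks a strong activation domain, lies on chromosome 5 (32136472 to 32157840, plus strand). The region over its start (32136372 to 32136823) was weak: folds were 3.11 and 2.87 in wild type and 2.81 in Cpt2 knockout 2, and no other library had a peak. The main region lay 382 bp upstream (32135433 to 32136090), with folds of 8.13 and 9.27 in wild type, 8.97 and 8.08 in Cpt2 knockout, 4.92 and 4.98 in Ppara knockout, and 6.75 and 5.26 in double knockout. The sides did not overlap. In rank by −log10 p the sides were also apart, at percentiles of 86.6 to 91.2 and 55.8 to 81.9 in equal-length lists. Ranked by fold they overlapped. Inside the gene, a region 18916 bp from the start (32155388 to 32155788) had folds of 4.64 to 5.82 in the Ppara-intact livers and of 4.11 in Ppara knockout 2, with no peak elsewhere.

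Maff encodes a small Maf protein that binds DNA as a partner of Nrf2 and Fos and has no activation domain of its own. It lies on chromosome 15 (79346621 to 79359078, plus strand). The region of 1398 bp near its start sites (79347175 to 79348572) had folds of 4.73 and 5.23 in wild type, 6.16 and 4.96 in Cpt2 knockout, 3.97 in Ppara knockout 1, and 4.13 and 3.87 in double knockout. Ppara knockout 2 had no peak, and the sides did not overlap where called, but the values were not all of peaks at one place. Counted from the first start site, wild type peaks lay at 1244 to 1922 and 1253 to 1951 bases. The double knockout peaks used lay at 585 to 1139 and 567 to 798. Both double knockouts also had weaker peaks overlapping those of wild type, at folds of 3.74 and 3.41. A call counted any peak in the region. In equal-length lists both Cpt2 knockouts, both double knockouts and Ppara knockout 1 called it and neither wild type library did. The other Maff region, inside the gene, was called in wild type 2 and Cpt2 knockout 1.

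Egr1 encodes a zinc finger factor that binds GC-rich sites and lies on chromosome 18 (34861207 to 34864956). The region over its lower-coordinate end (34859768 to 34861303) was called in all 8 libraries. Folds were 5.09 and 5.84 in wild type, 5.04 and 5.27 in Cpt2 knockout, 4.07 and 3.85 in Ppara knockout, and 4.3 and 4.28 in double knockout, with no overlap between sides. Its strongest peak was 999 to 1496 bp wide in Ppara-intact livers and 337 to 784 bp wide in Ppara-null ones. Both wild type libraries, both Ppara knockouts and double knockout 2 had a second peak in this region. In Ppara knockout 1 the peaks lay at -873 to -496 and -399 to -63 bases from that end. These widths are thus not those of the whole open stretch. In equal-length lists the percentiles were 29.8 to 60.3 and 44.8 to 62.5, which overlap. Beyond the other end, the region at 34865068 to 34865852 went the other way in 1 library: double knockout 2 had the highest fold of all, 6.26, against 2.89 to 5.3 in Ppara-intact libraries. Double knockout 1 had 4.2, Ppara knockout 1 had 3.6 and Ppara knockout 2 had no peak.

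Klf6, a zinc finger factor induced in liver injury, lies on chromosome 13 (5861489 to 5870393, plus strand). Its start lay in the second strongest region of the set by mean percentile (5860966 to 5861772). Folds were 12.9 and 14.4 in wild type, 14.9 and 10.6 in Cpt2 knockout, 9.68 and 9.29 in Ppara knockout, and 11.1 and 9.19 in double knockout. The sides overlapped, since double knockout 1 was above Cpt2 knockout 2. In equal-length lists this peak kept a like rank, at percentiles of 86.3 to 93.6 and 90.9 to 93.2. Summits lay at -281 to -193 bases from the start.

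The Klf6 upstream sequence is shown because this start region was open in every library. TGACNTCA is in capitals at position -119, with the match TGACATCA. The source is RefSeq on GRCm38.p6, chr13:5861239-5861488, plus strand.
Klf6: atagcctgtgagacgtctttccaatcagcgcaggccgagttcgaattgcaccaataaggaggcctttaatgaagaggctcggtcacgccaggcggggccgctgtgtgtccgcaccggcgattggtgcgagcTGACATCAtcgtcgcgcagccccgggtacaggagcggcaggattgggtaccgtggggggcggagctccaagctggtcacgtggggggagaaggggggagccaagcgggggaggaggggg

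Klf6 also held the single region of the 54 that separated by Cpt2 status, 19689 bp upstream of the start (5841444 to 5841800). Peaks were called at folds of 6.08 and 8.79 in Cpt2 knockout and 6.96 and 9.9 in double knockout, and in no wild type or Ppara knockout library. Of all regions, 0.0968% were called only in Cpt2-null and 0.00605% only in Cpt2-intact libraries. The exact permutation p was 0.0286, the smallest possible, with an adjusted p of 1 over all regions, and no region passed while 51 had an unadjusted exact p below 0.05. In equal-length lists Cpt2 knockout 1 no longer called it, and the other 3 Cpt2-null libraries placed it at percentiles of 17.7, 37.5 and 84.4. The remaining Klf6 regions did not follow Cpt2 status. That 57274 bp upstream had folds of 5.89 to 8.47 in the 4 Ppara-intact livers and of 4.67 in double knockout 1. The region inside the gene near its end was called in all 8 libraries, with Ppara-intact folds of 6.3 to 9.77 overlapping Ppara-null ones of 5.1 to 7.

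Myc, which drives growth and ribosome production, lies on chromosome 15 (61985341 to 61990361) and had the most regions of the 10 genes, 13. The region over its lower-coordinate end (61984841 to 61985796) had folds of 4.38 and 4.85 in wild type, 4.27 and 4.32 in Cpt2 knockout, 4.86 in Ppara knockout 1 and 4.02 in double knockout 1, and no peak in the second library of either Ppara-null genotype. Where called, the values overlapped, but the peaks did not all lie at one place. Counted from that end, the peak used lay at -468 to -142 bases in wild type 1 and 64 to 436 in wild type 2. In Ppara knockout 1 and double knockout 1 it lay at 52 to 362 and 46 to 297. The Cpt2 knockout peaks spanned the end. The region separated by Ppara status (61983378 to 61983706) had folds of 3.81 to 4.49 in the Ppara-intact libraries. No equal-length list of any library held it.

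The highest ranked of the other Myc regions lay 53389 bp above the gene (62043750 to 62044171) and was called in all 8 libraries, at 5.26 and 5.58 in wild type, 8.01 and 7.84 in Cpt2 knockout, 6.11 and 6.8 in Ppara knockout, and 6.79 and 7.65 in double knockout. Wild type was lowest and Cpt2 knockout highest there. In equal-length lists 1 Ppara-intact and all 4 Ppara-null libraries called it. With all peaks, 10 of the 13 Myc regions had more Ppara-intact than Ppara-null libraries calling and 1 had fewer, whereas in equal-length lists none had more and 7 had fewer. In those lists Fosb had 4 regions with more and 0 with fewer, Fos 3 and 0, and Junb 2 and 0, and Klf6 had 1 and 3. Over all 54 regions the counts were 39 and 2 with all peaks, and 12 and 14 in equal-length lists. For all 49587 regions, 66.9% had more Ppara-intact and 7.28% more Ppara-null libraries with all peaks, and 18.8% and 18.9% in equal-length lists.

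At some Myc regions, genotypes differed within Ppara status. The region 45593 bp below the gene (61939319 to 61939748) had folds of 6.87 and 7.6 in wild type, 14.4 and 5.49 in Cpt2 knockout and 6.87 and 6.28 in Ppara knockout, and no peak in double knockout. That inside the gene (61987021 to 61987354) had folds of 3.38 to 3.97 in Ppara-intact livers and of 3.87 in Ppara knockout 1. Ppara knockout 2 and both double knockouts had no peak, so the Ppara-null genotypes were not separated there. A region 76840 bp above the gene was called in Cpt2 knockout alone, at 6.08 and 5.52.

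**Figure D4:**
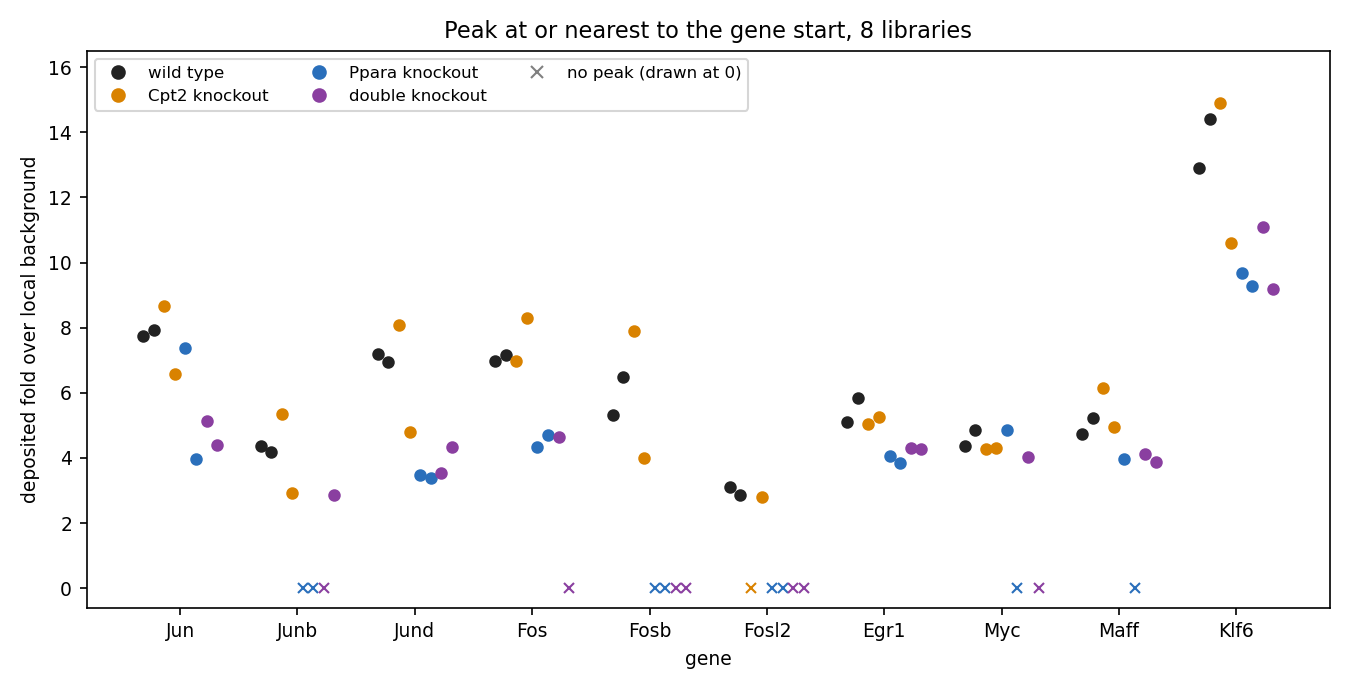
Deposited fold over local background at the region over or nearest to the start of each of the 10 genes (for Myc and Egr1 the lower-coordinate end of the gene), 1 point per library coloured by genotype, with crosses at 0 where no peak was called. Klf6 has the highest point in each of the 8 libraries, and at Fosb only the Ppara-intact libraries have points.

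Between pairs of genotypes, a region counted as changed when both libraries of one genotype called it and neither of the other did. No test of 2 libraries against 2 can reach an exact p of 0.05, so none was made. For Ppara knockout against wild type, 8 of the 54 (14.8%) were called only in wild type, with a background of 13.6%, and 0 only in the knockout, with 0.46%. These 8 were the 3 separated by Ppara status, the starts of Junb and Fosl2, the Fos regions 1341 bp upstream and 55223 bp downstream, and the Klf6 region 57274 bp upstream. Against the same wild type libraries, 11 (20.4%) were called in wild type and not in double knockout, with a background of 12.9%, and 1 (1.85%), that upstream of Klf6, only in double knockout, with 1.2%. Fosb and Myc had 3 each of the 11, Jun and Fosl2 2 each, and Fos 1.

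Between Cpt2 knockout and double knockout, 11 (20.4%) were called only in Cpt2 knockout, with a background of 20.4%, and 0 only in double knockout, with 0.597%. Of these 11, Myc had 4, Fosb 3, Fos 2, and Jun and Fosl2 1 each. These comparisons share control libraries and so are not independent. For Cpt2 knockout against wild type, 4 (7.41%) were called only in Cpt2 knockout, with a background of 3.63%: 2 upstream of Fos, 1 upstream of Klf6 and 1 above Myc. For double knockout against Ppara knockout, 1 (1.85%) was called only in double knockout, with a background of 2.33%, and 2 (3.7%), the Myc region 45593 bp below the gene and that inside Fosb, only in Ppara knockout, with 1.45%.

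In equal-length lists, 38 of the 54 regions had a peak in some library, and the pairs of genotypes gave other counts. A region called only in a single genotype of a pair here could still have a peak of the other genotype in the full lists. For Ppara knockout against wild type, 3 were called only in the knockout, all at Myc, with a background of 3.93%, and 3 only in wild type, at Junb, Fosb and Klf6, with 5.69%. For double knockout against wild type, 7 (18.4%) were called only in double knockout, with a background of 5.09%. They were 3 at Myc, 2 at Klf6 and 1 each at Maff and Egr1. Among these, just the Klf6 region 19689 bp upstream had no wild type peak in the full lists. At the others a wild type peak was lost when the list was shortened, as at Maff, with wild type folds of 4.73 and 5.23. The 3 called only in wild type, with 5.54%, were 2 at Fosb and 1 at Klf6. For Cpt2 knockout against wild type, 1, at Maff, was called only in Cpt2 knockout, with 1.52%, and 0 only in wild type, with 1.35%. Between Cpt2 knockout and double knockout, 3, of Myc and Klf6, were called only in double knockout, with 4.31%, and 1, at Fosb, only in Cpt2 knockout, with 4.95%. Between both Ppara-null genotypes, 1, the distal Klf6 region, was called only in double knockout, with 3.35%, and 2, at Myc and Fosb, only in Ppara knockout, with 3.03%. By Cpt2 status none was separated in either direction, with 0.0666% for Cpt2-null and 0.0899% for Cpt2-intact.

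Ranks within equal-length lists compared peaks free of list length. Of the 9 member regions called in all 8 equal-length lists, 1, that upstream of Fosl2, ranked higher in every Ppara-intact than in every Ppara-null library, where the background was 5.96%. The strong region upstream of Fosb, 1 of the 9, ranked higher in every Ppara-null library, with a background of 5.07%. Its percentiles were 99.9 to 100 there and 98.9 to 99.8 in Ppara-intact libraries, all near the top of the scale. The folds of this region overlapped, and its deposited −log10 p was lower in Ppara-null libraries, at 165 to 276 against 288 to 358. Ranked by fold, no member was higher in every Ppara-intact library and the Fosb region was again higher in every Ppara-null one, with backgrounds of 4.21% and 7.21%. By −log10 p the other 7 overlapped. At Jun, Ppara-intact libraries ranked its start at percentiles of 83.3 to 89.3 and Ppara-null ones at 95.8, 48.2, 66.2 and 53.9, so Ppara knockout 1 alone broke the separation. At Junb the region 1016 bp upstream ranked at 41 to 84.6 and 66.3 to 88.6.

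**Figure D5:**
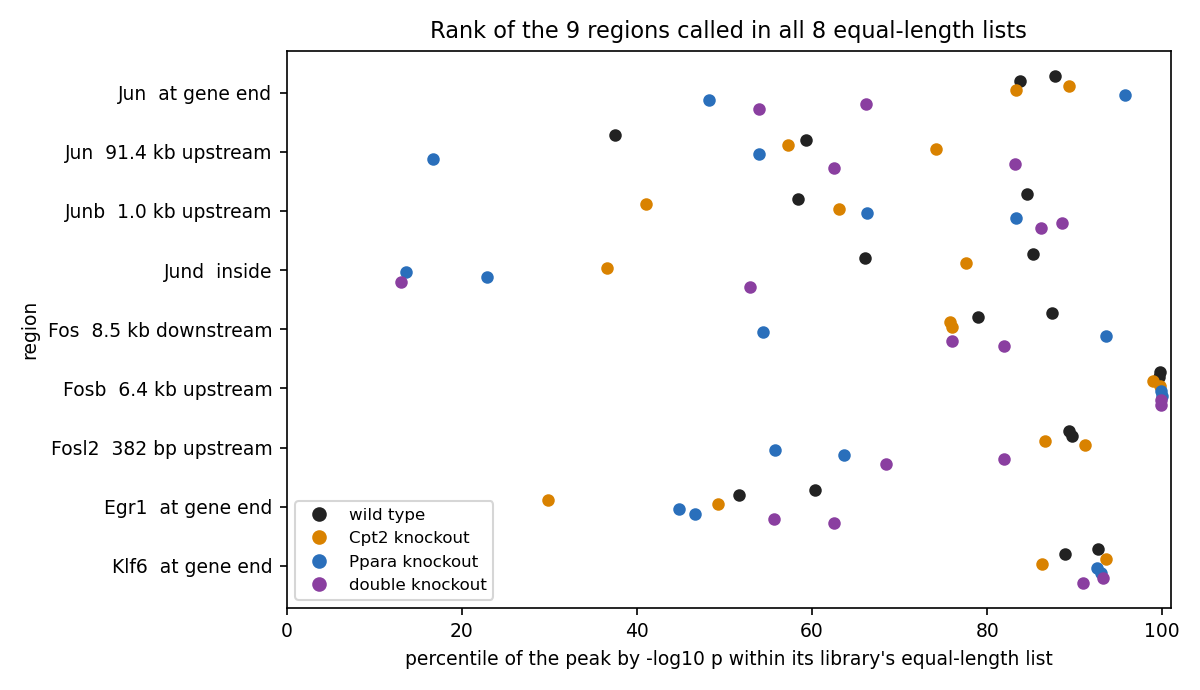
Percentile of the peak by −log10 p within its library's equal-length list (horizontal axis) at the 9 member regions called in all 8 equal-length lists (rows), 1 point per library coloured by genotype. At Fosl2 the 4 Ppara-intact points, between 86.6 and 91.2, lie right of the 4 Ppara-null points, and in 7 of the other rows the sides mix.

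Other immediate early and AP-1 genes were read from a list of 46, of which 45 had at least 1 region and 213 regions in all. Peaks were present at 70.9% of these in Ppara-intact and 33.3% in Ppara-null libraries, and at 31.3% and 30.6% in equal-length lists. Of the 213, 17 (7.98%) were called only in Ppara-intact libraries, close to the 6.82% of all regions, and 0 only in Ppara-null libraries. In equal-length lists neither kind was found. Of the 17, the 6 with the highest mean percentile within 10 kb of their gene were at Gadd45b, Max, Ier2, Csrnp1, Ccn1 and Maf. Gadd45b encodes a stress sensor, and its region (chromosome 10, 80929777 to 80930169) had folds of 4.17 to 6.86 in the 4 Ppara-intact libraries. Max encodes the obligate partner of Myc, and the region inside it (chromosome 12, 76954934 to 76955387) had folds of 6.28 to 9.22. The regions at Ier2 and Csrnp1, both immediate early genes, had folds of 4.02 to 4.65 and 4.15 to 4.63. Ccn1 encodes a matrix protein and its region had folds of 5.21 to 6.41, and at Maf, a large Maf factor, they were 4.21 to 5.83.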

How the data were processed

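The authors deposited 1 peak list per library in narrowPeak form and 1 table of consensus and library intervals on mm10, per the file headers. BWA and MACS2 2.1.0 are named in the submitters' processing notes, with no role or order; how duplicates and the Tn5 offset were treated is not given in the sources used here. In the deposited lists, per the file layout, column 7 is a fold (ratio) of summit pileup to local background, columns 8 and 9 are −log10 p and −log10 q, and a score made from the p-value is also deposited. They were used as each peak's own values and ranked within lists. No read counts were used, so depth is unknown. The 49587 consensus regions were identical to the 8 lists merged on overlap.

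A region counted as called with any overlap, from 1 bp, with the strongest overlapping peak by −log10 p giving its values. Genes were the 21900 protein-coding genes of RefSeq on GRCm38.p6. Calls were tested per region by Ppara and by Cpt2 status by permuting the libraries exactly (70 orders, two-sided), with Benjamini-Hochberg adjustment over all regions. Named were the region at each start, the strongest other one by mean percentile, and every separated region (of 1 gene and comparison, at most 3), with up to 6 regions of the other list. The members, the lists and these rules were chosen with earlier results of these data known, and TGACNTCA after the sequences were seen. Alternatives were equal-length lists, a −log10 q of at least 20, 50% cover, 10 kb, single nearest genes, the replicate block and leaving out each library. The code was tested on simulated lists. Python 3.11.15, NumPy 2.4.6, pandas 2.3.3 and matplotlib 3.10.9 were used. One result of the other list is not reported here.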

Additional observations from a re-analysis of the deposited data

How the results depend on the processing

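The 3 regions called only in Ppara-intact livers became 0 in equal-length lists, 7 with a −log10 q of at least 20 and 7 with 50% cover. They were 3 to 5 when single libraries were left out, with 5 without Cpt2 knockout 1, Ppara knockout 2 or double knockout 1. For the q minimum, 50% cover, 10 kb and left-out libraries, the share of all regions is not given here. Counts under those settings therefore have no background. The 1 region called only in Cpt2-null livers became 0 in equal-length lists, with the same q minimum and within 10 kb, and the count for Cpt2-intact livers was 0 to 1 without single libraries (1 without Ppara knockout 1). For Ppara knockout against wild type, the 0 gained and 8 lost in the knockout became 3 and 3 in equal-length lists and 0 to 1 and 9 to 17 without single libraries (17 without Ppara knockout 1). Double knockout against wild type gave 1 and 11, which became 7 and 3 in equal-length lists, the first became 0 at the q minimum, 2 with 50% cover and 0 within 10 kb, and without single libraries they were 1 to 3 and 12 to 18 (18 without wild type 1). For Cpt2 knockout against wild type, 4 and 1 became 1 and 0 in equal-length lists, the first became 0 within 10 kb and the second 0 at the q minimum, and the second was 1 to 4 without single libraries (4 without wild type 1). Double knockout against Cpt2 knockout gave 0 and 11, which became 3 and 1 in equal-length lists, the second became 17 with 50% cover and 7 within 10 kb, and without single libraries they were 0 to 1 and 13 to 17 (17 without Cpt2 knockout 2). Double knockout against Ppara knockout gave 1 and 2, which became 2 and 0 at the q minimum and 0 and 1 within 10 kb, the first was 2 with 50% cover, and without single libraries they were 2 to 7 and 2 to 5 (7 and 5 without Ppara knockout 1). The difference in the share called moved from 34.7 to -2.31 percentage points in equal-length lists. The 1 region ranked higher in every Ppara-intact library became 0 by fold and was 1 to 2 without single libraries, and the 1 ranked higher in Ppara-null ones was 1 to 3 (3 without wild type 1). The replicate block, with the numbers shared only as labels, left 3 and 1 separated regions, and its smallest exact p is 0.0556 over 36 orders. Fewer regions within 10 kb and fewer libraries are part of those alternatives; for the others the cause was not tested. The lists give no read depth, so a missing peak does not show closed chromatin.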
